A study of Mus musculus with 9 samples.

Results

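Klrd1, Klrc1, Klrk1, Klrg1, Klra17 and Cd160 encode cell surface receptors best known from natural killer (NK) cells, and they were described here across 9 samples of mouse T cells. They were chosen by name and make up 6 of the 770 genes in the deposited table. The samples came from mice of the B10.RIII background, a strain susceptible to experimental autoimmune uveitis. The labels give the same protocols for every sample. They name WT mice and Rag2-/- IRBP-/- R161H mice, immunization with the retinal peptide IRBP161-180 in complete adjuvant, and oral ampicillin, metronidazole, neomycin, vancomycin and gentamicin for 1 week or at least 4 weeks beforehand. They do not say which genotype or antibiotic arm a sample came from, its age, or how many mice were pooled. Each of 4 tissues (intraepithelial compartment, small-intestinal lamina propria, mesenteric lymph node and peripheral lymph node) is represented by a CD4 and a CD8 sample, and a further intraepithelial sample is labelled CD4CD8. Every group is therefore 1 sample, and no value below has a replicate.

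Klrd1 (CD94) and Klrc1 (NKG2A) products pair on the cell surface into an inhibitory receptor that reads the non-classical class I molecule Qa-1. Klrk1 encodes NKG2D, an activating receptor for stress-induced class I-like ligands, which signals through the adaptor DAP10 in T cells. Klrg1 encodes an inhibitory receptor that binds cadherins, and Klra17 encodes Ly49Q, an inhibitory Ly49 family member known from plasmacytoid dendritic cells and other myeloid cells. CD160 is not a lectin but a member of the immunoglobulin superfamily that binds HVEM. CD160 and NK-type lectin receptors are well known on intestinal intraepithelial T cells and on activated CD8 T cells.

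In the mouse assembly GRCm38.p6, Klrd1 and Klrk1 are adjacent protein-coding genes on chromosome 6. Only Klrc3 and Klrc2 lie between Klrk1 and Klrc1, and Klri1, Klri2 and Klrh1 lie between Klrc1 and Klra17. Klrg1 lies elsewhere on chromosome 6, and Cd160 is on chromosome 3. RefSeq promoter windows of that assembly matched 4 of the 6 genes (5 windows). Those of Klrk1, Klrc1 and Cd160 are shown because these 3 genes were at the floor of the table in both node CD4 samples and above it in both node CD8 samples. Capitals mark TGTGGT or its reverse complement ACCACA, the core letters of a RUNX motif, and GGTGTGA or its reverse complement TCACACC, letters of a T-box motif, searched on both strands after the values had been seen. Neither match overlapped the other. Each line gives the 250 bases before a start site on the minus strand, written 5′ to 3′.
Klrk1, chr6:129623865-129624114: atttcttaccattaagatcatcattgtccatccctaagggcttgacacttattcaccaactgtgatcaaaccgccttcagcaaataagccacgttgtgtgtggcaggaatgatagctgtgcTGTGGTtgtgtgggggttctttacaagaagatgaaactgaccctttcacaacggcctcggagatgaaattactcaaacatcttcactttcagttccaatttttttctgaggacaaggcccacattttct
Klrc1, chr6:129678974-129679223: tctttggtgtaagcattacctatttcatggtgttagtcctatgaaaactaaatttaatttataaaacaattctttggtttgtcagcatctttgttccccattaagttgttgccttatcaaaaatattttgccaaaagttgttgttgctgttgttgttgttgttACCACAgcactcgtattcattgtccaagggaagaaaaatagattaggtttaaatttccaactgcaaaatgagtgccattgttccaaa
Cd160, first start, chr3:96829352-96829601: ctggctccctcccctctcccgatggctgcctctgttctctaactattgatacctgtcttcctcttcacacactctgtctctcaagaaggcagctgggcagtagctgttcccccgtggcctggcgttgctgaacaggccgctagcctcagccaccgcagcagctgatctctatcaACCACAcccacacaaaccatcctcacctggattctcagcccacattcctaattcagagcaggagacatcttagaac
Cd160, second start, chr3:96814522-96814771: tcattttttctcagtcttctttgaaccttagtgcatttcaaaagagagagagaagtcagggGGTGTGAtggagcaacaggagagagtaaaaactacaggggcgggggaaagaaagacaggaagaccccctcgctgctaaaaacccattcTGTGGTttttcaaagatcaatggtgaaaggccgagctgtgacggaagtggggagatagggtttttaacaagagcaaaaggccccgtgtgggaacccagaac
The RUNX letters begin 129 bases before the start in Klrk1, 87 in Klrc1, and 76 and 101 at the Cd160 starts. They were in 4 of the 5 windows, all but that of Klra17, and in 14% of all 32851 windows of this length. The T-box letters stood in the second Cd160 window alone among the 5, and in 3.33% of all windows. A match is a description of letters and not a binding site.

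The table lists log2 values down to a floor of 4.32, the log2 of 20. The lowest value listed above the floor, called the limit of a sample here, was 6.30, 5.52 and 5.05 for the CD4, CD4CD8 and CD8 intraepithelial samples and 5.59 for CD8 of the lamina propria. The remaining 5 limits were 4.34 to 4.38. Floor entries mean only that the level lay below that limit. In the 4 samples with limits above 5 the low values fell on whole multiples of 1 step, so that counts can be read back, and each limit was then 20 counts (19.95 to 19.99 by the step). Intervals below are exact 95% Poisson intervals of these counts and cover counting error only. In the other 5 samples no step was found and the depth is unknown. The lineage genes followed the labels: Cd4 was 9.14 to 9.80 in CD4 samples and at the floor in CD8 samples, and Cd8a was 9.62 to 11.29 in CD8 samples and at the floor in CD4 samples. Cd3e, a chain of the T cell receptor complex, was 9.63 to 11.64 in all 9. In these bulk samples, fewer cells that carry a transcript and less of it per cell cannot be told apart.

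**Figure D1:**
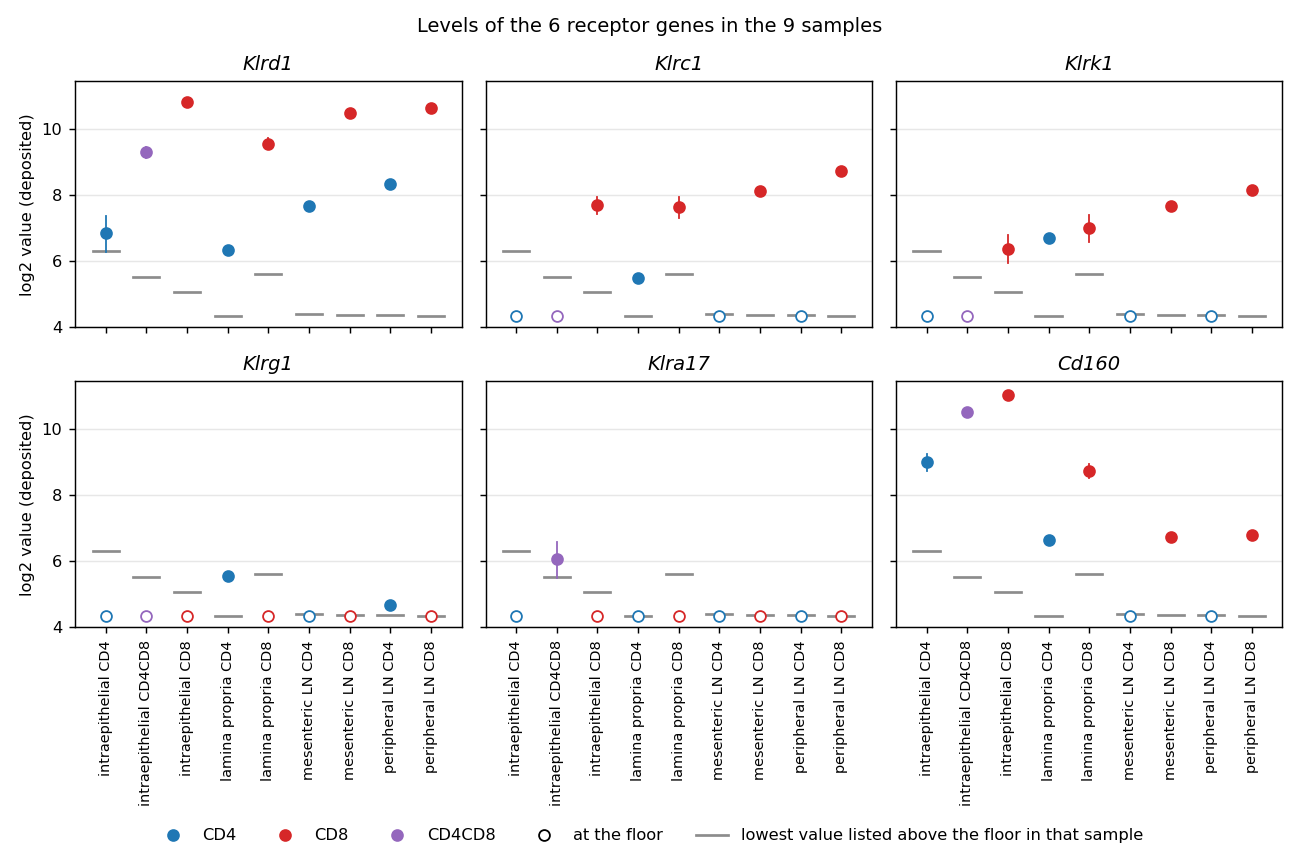
Deposited log2 values of the 6 receptor genes in each of the 9 samples. Filled points lie above the floor and open points at it, grey bars give the lowest value listed above the floor in that sample, and vertical lines are 95% Poisson intervals where counts could be read back. Klrd1 lies above the floor in all 9 samples and Klra17 in 1.

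The 6 genes differed in how widely they were detected. Klrd1 was above the floor in all 9 samples, Cd160 in 7, Klrc1 and Klrk1 in 5, Klrg1 in 2 and Klra17 in 1. All 4 CD8 samples listed Klrd1, Klrc1, Klrk1 and Cd160, and none listed Klrg1 or Klra17. Klrc1 and Klrk1 were above the floor in the same 5 samples, the 4 CD8 samples and lamina propria CD4. No other gene of the table had that set, out of 33 genes listed in exactly 5 samples.

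The inhibitory pair was considered first. Klrd1 was 10.81 in intraepithelial, 9.56 in lamina propria, 10.49 in mesenteric and 10.64 in peripheral CD8. In the CD4 samples it was 6.84, 6.32, 7.67 and 8.34 in the same tissue order. Every CD8 value lay above every CD4 value. The intraepithelial CD4 value rested on 29 counts (interval 19.4 to 41.6) and the intraepithelial CD8 value on 1081 (1018 to 1147). The order of tissues was not the same in the subsets: among CD8 samples the intraepithelial one was highest, while among CD4 samples both node values exceeded both gut values. The spread used for neighbours in an order is the SD of a difference between 2 samples from the fit described below, 0.57 for Klrd1. That fit takes floor entries as values, so for Klrc1, Klrk1 and Cd160 the spread depends on the floor and may be too small or too large. The intraepithelial, peripheral and mesenteric CD8 values lay within it of each other, as did intraepithelial and lamina propria CD4. This spread is how tissue effects varied with subset, so a gap within it does not show that levels were alike. A gap beyond it is a description and no test.

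Klrc1 was 7.69 in intraepithelial, 7.63 in lamina propria, 8.12 in mesenteric and 8.72 in peripheral CD8. It was 5.47 in lamina propria CD4 and at the floor in the other 3 CD4 samples. CD8 and CD4 values did not overlap. The counts behind the gut CD8 values were 124 (103 to 148) and 82 (65.2 to 102). Neighbouring CD8 values of Klrc1 lay within 0.60 of each other, less than their SD of a difference (0.81). Wider gaps exceeded it: intraepithelial minus peripheral CD8 was -1.03, and lamina propria minus peripheral CD8 was -1.09. The intraepithelial CD4 limit of 6.30 lies above the level seen in lamina propria CD4, so a level like that one would not have been listed there. Klrc1 has near-identical neighbours, and how far its probe tells them apart is not given in the sources used here. Klrc2, which encodes an activating partner of CD94, was 5.32, 6.20 and 6.88 in CD8 samples of the epithelium, mesenteric and peripheral node and was not listed elsewhere.

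The activating receptor Klrk1 had both node CD8 values above both gut CD8 values, as Klrc1 did. It was highest in peripheral (8.16) and mesenteric CD8 (7.68), lower in lamina propria CD8 (7.0), and lowest in intraepithelial CD8 (6.37, 50 counts, interval 37.1 to 65.9). In lamina propria CD4 it was 6.70, above intraepithelial CD8, so the subsets overlapped. It was at the floor in the other CD4 samples. Each gap between neighbours in this order was within the SD of a difference, 1.29. Intraepithelial minus peripheral CD8 was -1.79, beyond it, and intraepithelial minus mesenteric CD8 was -1.31, barely beyond it.

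Cd160 followed the tissue as well as the subset. It was 11.04 in intraepithelial, 8.72 in lamina propria, 6.72 in mesenteric and 6.78 in peripheral CD8. In CD4 it was 8.99 intraepithelial and 6.62 in the lamina propria, and at the floor in both nodes. The intraepithelial CD4 value, with 129 counts (108 to 153), lay above the CD8 value of every other tissue, with a gap to lamina propria CD8 of 0.27, which did not exceed the SD of a difference (0.27). Lamina propria CD4 and both node CD8 samples lay within 0.16 of each other. Within CD8, intraepithelial exceeded peripheral by 19.2-fold and lamina propria exceeded mesenteric by 4.00-fold. Within CD4, intraepithelial was 5.17-fold above lamina propria and at least 24.4-fold above mesenteric.

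Klrg1 and Klra17 were rarely detected. Klrg1, which in CD8 T cells marks terminally differentiated effectors, was 5.53 in lamina propria CD4 and 4.65 in peripheral CD4 and at the floor in the other 7 samples. A level of 5.53 lies below the limits of intraepithelial CD4 and lamina propria CD8, so that absence there could not have been told from the lamina propria CD4 level. In mesenteric CD8 and peripheral CD8, with limits of 4.36 and 4.34, the same level would have been listed. Klra17 was 6.06 in intraepithelial CD4CD8, from 29 counts (19.4 to 41.6) against the limit of 20, and at the floor in the other 8 samples. That value is below the limit of intraepithelial CD4.

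The first comparison asked how the receptors differed between CD8 and CD4 across tissues. Klrd1, Klrc1 and Cd160 were higher in CD8 and Klrk1 did not pass the test. The test was limma on log2 values of 8 samples, the CD4CD8 one left out, with terms for tissue and subset and Benjamini-Hochberg adjustment over 433 genes. It measures how far a difference varied from tissue to tissue and not between replicates. Klrd1 rose by 3.08 ± 0.28 (SE of the fit, as below; 8.47-fold, adjusted p = 0.00564) and was higher in 4 of 4 tissues. Klrc1 rose by 3.43 ± 0.40 (adjusted p = 0.0126) and Cd160 by 2.25 ± 0.14 (adjusted p = 0.00173), also in 4 of 4. Klrk1 gave 2.39 ± 0.64 (adjusted p = 0.0819, 95% interval 0.72 to 4.05), with listed values higher in 4 of 4. Klrg1 gave -0.39 ± 0.25 (adjusted p = 0.340), and Klra17, at the floor in all 8 samples, was not tested.

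Of the 5 genes tested, 3 were called, all higher, where 14.8% of all tested genes were called, 5.54% higher and 9.24% lower in CD8. The higher share of those calls was 37.5%, and 50% with samples centred on their medians, which moved the median of all genes from -0.14 to 0.012. A gene entered the test if it was listed in 2 or more of the 8 samples, which favours genes high in 1 subset. Klrc1 lost its call without the mesenteric pair (3.31, adjusted p = 0.0503) or the filter (adjusted p = 0.0728), and Cd160 with all values below 6.30 raised to it (1.26, adjusted p = 0.101). Klrk1 was called without the lamina propria pair (3.08, adjusted p = 0.0362) and with sample weights (3.30, adjusted p = 0.00359). The weights were estimated from the same 8 samples and leaned on the nodes. They were 2.79 to 2.82 for node, 0.29 for intraepithelial and 0.44 for lamina propria samples. Sizes and SEs that rest on CD4 values at the floor depend on it: with values below 6.30 raised, Klrc1 gave 1.74 (adjusted p = 0.0105) and Klrk1 0.90 (adjusted p = 0.155). The median difference of the 5 was 2.39, and that of all 433 genes was -0.14. Klrd1 and Klrc1 had all 4 CD8 values above all 4 CD4 values, as did 2.77% of tested genes. An exact two-sided permutation test within the 4 tissue pairs gave p = 0.125 for each of Klrd1, Klrc1, Klrk1 and Cd160, the smallest p that 4 pairs allow.

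The size of the difference could be measured in some tissues and only bounded in others. For Klrd1 it was 15.7-fold intraepithelial, 9.45-fold in the lamina propria, 7.06-fold mesenteric and 4.92-fold peripheral. For Klrc1 it was 4.47-fold in the lamina propria, and at least 2.62-fold, 13.4-fold and 20.7-fold intraepithelial, mesenteric and peripheral. Klrk1 differed by 1.23-fold in the lamina propria, but by at least 9.85-fold in the mesenteric and 14.0-fold in the peripheral node. Its intraepithelial bound was 1.05-fold by listed value, since the CD8 value lay just above the CD4 limit of 6.30. The counting interval of that CD8 value reaches down to 5.95, below the limit, so no difference is bounded there once counting error is included. For Cd160 the differences were 4.14-fold intraepithelial and 4.29-fold in the lamina propria, and at least 5.06-fold and 5.39-fold in the mesenteric and peripheral nodes. Klrg1 was the 1 gene listed in CD4 only: peripheral CD4 was at least 1.24-fold above CD8.

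**Figure D2:**
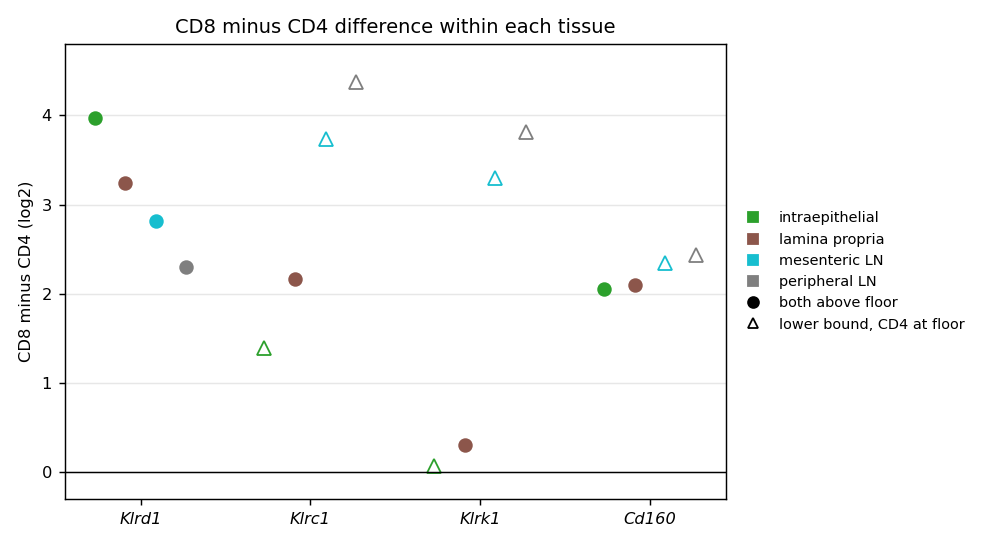
CD8 minus CD4 difference on the log2 scale for 4 genes, with 1 point for each tissue. Circles are differences of values above the floor, and open triangles are lower bounds by listed value where the CD4 sample was at the floor. Klrk1 is 0.30 in the lamina propria and at least 3.30 and 3.81 in the nodes, while the Cd160 points lie between 2.05 and 2.43.

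An interaction term, which leaves 2 residual degrees of freedom, asked whether the CD8 difference was unlike in gut and node. Klrd1 had the larger listed difference in gut (1.05 ± 0.34, adjusted p = 0.203), and Klrk1 the smaller (-2.43 ± 0.71, adjusted p = 0.167). Klrc1 gave -1.34 ± 0.56 (adjusted p = 0.283), Cd160 -0.36 ± 0.20 (adjusted p = 0.457) and Klrg1 -0.44 ± 0.49 (adjusted p = 0.716). None passed, against 1.39% of all tested genes, and 2 of the 5, Klrd1 and Klrk1, had an unadjusted p under 0.05 (0.0376 and 0.0278) where 21.7% of all genes did. With every value below 6.30 raised to it, the Cd160 term turned from -0.36 to 1.63 (adjusted p = 0.0499) (a setting that shortens the node differences by construction). Between the intraepithelial and lamina propria pairs, with 1 residual degree of freedom, no member passed (adjusted p from 0.153 for Klrg1 to 0.694 for Cd160). Of all genes limma called 0%, with an unadjusted p under 0.05 for 34.4%. With median centring 94 genes were called, Klrk1 among them (1.80, adjusted p = 0.0284), and with the raised floor 67 of 337, where Klrk1 turned to -0.23.

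The tissue comparisons set gut against node, and the gut compartments against each other. Only Cd160 of the 5 tested genes passed in either. Cd160 was higher in gut by 3.31 ± 0.14 (9.90-fold, adjusted p = 0.000300), in both subsets by listed value, and 15.7% of all tested genes were called higher and 13.2% lower. Within the gut it was higher in the intraepithelial samples by 2.35 ± 0.19 (5.08-fold, adjusted p = 0.00292), where 12.5% of tested genes were called higher and 9.7% lower. The gut difference was 2.14 without the intraepithelial pair, 4.48 without the lamina propria pair and 2.32 with all values below 6.30 raised to it, and the node CD4 values behind it are at the floor. In these fits each tissue has its own term, so the p-values measure how far a tissue difference varied with the subset and not whether tissues of 1 kind were alike. Gut and node values of Cd160 overlapped, as lamina propria CD4 (6.62) lay below both node CD8 samples. No member had all 4 gut values above all 4 node values, which 7.62% of tested genes had.

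Averaged over the subsets, Klrd1 pointed to the nodes without passing the test. Among CD4 samples both node values exceeded both gut values. Among CD8 samples, intraepithelial (10.81) lay above both nodes and lamina propria (9.56) below them. Klrd1 gave -0.90 ± 0.28 in gut against node (adjusted p = 0.0726, 95% interval -1.64 to -0.17), and 0.89 ± 0.40 in intraepithelial against lamina propria (adjusted p = 0.212). Without the intraepithelial pair the gut difference was -1.35 (adjusted p = 0.0143), and without the lamina propria pair it was -0.46 (adjusted p = 0.406). With values at the floor set to each sample's limit the adjusted p was 0.0403, and the size stayed at -0.90, as Klrd1 has no floor entry. Cd160 and Klrd1 were the 2 members with an unadjusted p under 0.05 there, as 44.1% of all genes had. Klrc1 and Klrk1 gave -0.09 ± 0.40 and -0.02 ± 0.64 in gut against node (adjusted p = 0.852 and 0.980). The intervals of -1.14 to 0.95 and -1.69 to 1.64 leave room for a change of over 1.5-fold in either direction. Both averages join subsets that went opposite ways by listed value. Among CD8 samples both gut values lay below both node values for each gene (Klrk1 6.37 and 7.0 against 7.68 and 8.16). Among CD4 samples only lamina propria was listed (Klrc1 5.47, Klrk1 6.70), and the intraepithelial limit was 6.30. Klrg1 gave 0.22 ± 0.25 (adjusted p = 0.521), and 1.19 (adjusted p = 0.0426) at the sample limits. That setting lifts floor entries more in gut than in node samples by construction, since gut limits other than that of lamina propria CD4 are higher. Between mesenteric and peripheral node, limma called 0 of 433 genes (0%), with an unadjusted p under 0.05 for 20 genes (4.62%) and for none of the 5 members. The differences ran from -0.41 ± 0.40 for Klrd1 to -0.03 ± 0.19 for Cd160, which was 0.01 with median centring.

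**Figure D3:**
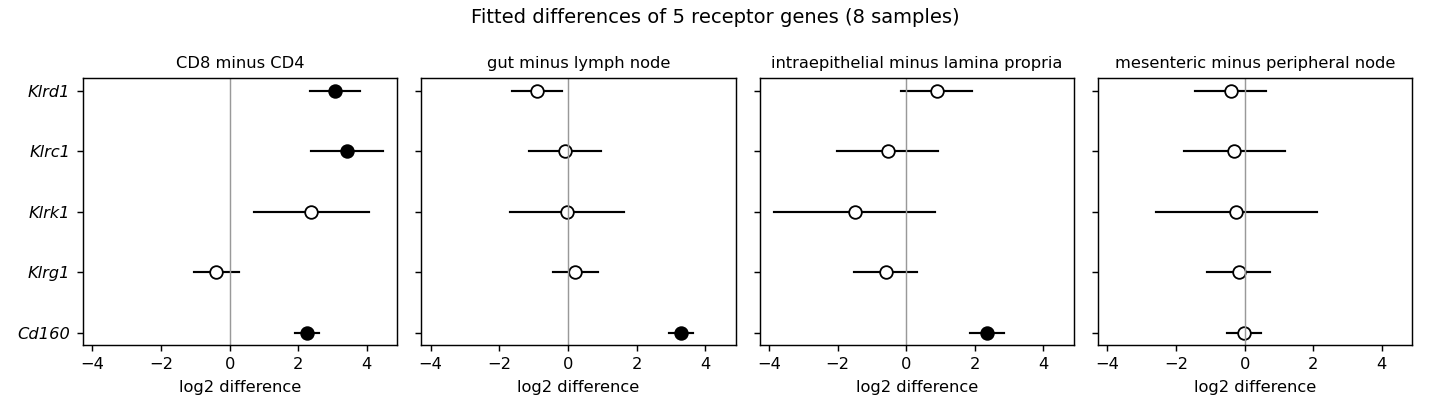
Fitted log2 differences of 5 receptor genes in 4 comparisons over the 8 CD4 and CD8 samples. Points are estimates, lines 95% intervals of the fit, and filled points passed an adjusted p of 0.05. Cd160 is filled in 3 panels, and Klrd1 and Klrc1 in the first.

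The intraepithelial CD4CD8 sample, of which there was 1, entered no test. Its label means that both co-receptors were present: Cd4 was 10.06 and Cd8a 11.50, while Cd8b1, the beta chain of CD8, was at the floor there and 8.85 in intraepithelial CD8. Klrd1 was 9.30 (274 counts, interval 243 to 308), 5.50-fold above intraepithelial CD4 and 2.85-fold below intraepithelial CD8. Cd160 was 10.51 (635 counts, 587 to 686), 2.87-fold above CD4 and 1.44-fold below CD8. Both values lay between those of the other intraepithelial samples. The intervals cover counting error only, and the spread between samples of 1 group is unknown. Klrc1 and Klrk1 were at the floor, as in intraepithelial CD4, at least 4.50-fold and 1.80-fold below intraepithelial CD8. Klrg1 was at the floor in all 3. Klra17 was at least 2.01-fold above intraepithelial CD8 by its listed value, but its counting interval reaches down to 5.48, nearer the limit of 5.05 there.

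Genes whose pattern was most like that of a member were found by Pearson's r of log2 values over the 9 samples, among 426 genes listed in 3 or more, with the 6 receptor genes left out of the search. These r values share the samples, the floor and the subset difference, and are a description. For Klrc1 the closest of these other genes were Cd8b1 (r = 0.98), Dpp4, the CD26 peptidase (0.97), and Bcl2, a survival factor (0.89). Cd8b1 was at the floor in every sample in which Klrc1 was, and also in lamina propria CD4. For Klrk1 they were Bid, a proapoptotic member of the BCL2 family (0.88), Dpp4 (0.86) and Cd8b1 (0.85). For Klrd1 they were Ada, adenosine deaminase (0.95), Cd8a (0.89) and Igf2r (0.89).

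For Cd160 the closest were Slamf7 (r = 0.98), Cd7 (0.98) and Amica1 (0.97), a junctional adhesion molecule. Slamf7, a receptor of the SLAM family on NK cells, ran from the floor in node CD4 to 9.35 in intraepithelial CD4CD8. Among the members themselves, Klrc1 and Klrk1 were closest (0.94), Klrd1 and Klrc1 reached 0.77, and Cd160 reached 0.34 with Klrd1, 0.21 with Klrc1 and 0.07 with Klrk1.

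**Figure D4:**
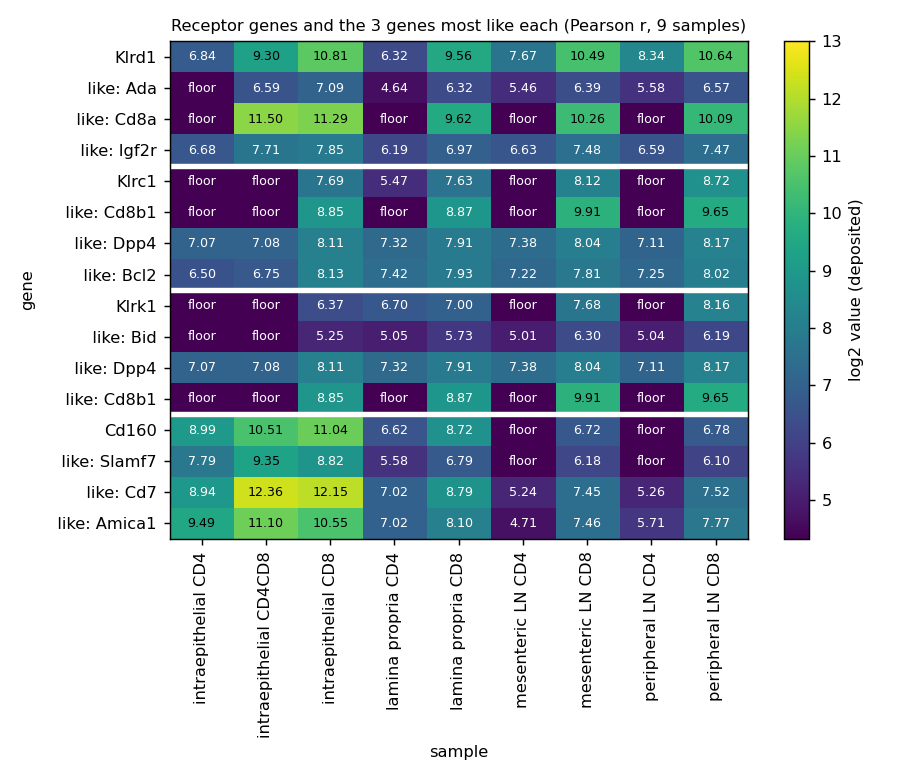
Deposited log2 values of 4 receptor genes and, below each, the 3 genes outside the 6 receptors with the highest Pearson r over the 9 samples. Cells marked floor are at 4.32, and the colour scale runs to 13. In the CD4CD8 column Klrc1, Klrk1 and Cd8b1 are at the floor, while Cd160 and its closest genes are between 9.35 and 12.36.

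Of 9 measured genes of the ligand list, 8 were tested, and none passed in CD8 against CD4, where 14.8% of all tested genes did. H2-T23 (Qa-1), the ligand of CD94-NKG2A, was 10.12 to 11.36 in all samples and higher intraepithelial than in the lamina propria by 0.73 ± 0.12 (adjusted p = 0.0156). Tnfrsf14, the HVEM ligand of CD160, was 6.71 to 7.68 and passed in no comparison. Of NKG2D ligands, H60a was at the floor throughout and Ulbp1 was listed in the 4 node samples only (4.43 to 5.17). Cdh1, the E-cadherin ligand of KLRG1, was higher in gut by 3.22 ± 0.41 (adjusted p = 0.00555). It was the 1 of 8 to pass there, where 28.9% of all tested genes were called.

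Of 8 measured adaptors and kinases, 7 were tested, and 2 rose in CD8, where 5.54% of all tested genes did. Hcst, which encodes the NKG2D adaptor DAP10, rose by 0.51 ± 0.10 (adjusted p = 0.0386), and Pik3cd, a lipid kinase subunit, by 0.38 ± 0.08 (adjusted p = 0.0475). Hcst was 7.23 to 8.51 over the 9 samples, also where Klrk1 was at the floor. In gut against node Zap70 rose and Lck and Pik3cd fell. In intraepithelial against lamina propria 5 of the 7 rose (Fyn, Hcst, Lck, Pik3cd and Zap70), by 0.77 to 1.14, and so did Inpp5d, the phosphatase SHIP-1, by 1.11 ± 0.24 (adjusted p = 0.0348). The median of the 7 was 0.78 there, that of all tested genes was 0.00, and 12.5% of all tested genes were called higher. In the same comparison the T cell markers Cd3d, Cd3e, Cd3g and Cd5 rose by 0.61 to 1.32 and Cd2 fell, while 4 of 5 tested epithelial markers fell by 2.78 to 7.95 and Lyz2, a myeloid marker, fell by 4.93. The part of the cell mix in the kinase values was not tested.

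Of 22 other NK-type receptor genes measured, 10 were at the floor in every sample and 10 were tested. Slamf7 was the 1 called in CD8 against CD4 (1.47 ± 0.23, adjusted p = 0.0197), where 14.8% of all tested genes were called, 5.54% higher. In gut against node 3 of the 10, Slamf7, Cd244 and Tigit, rose and none fell, where 15.7% of all tested genes rose. Cd244, a SLAM family receptor, was 7.44, 10.44 and 10.09 in the CD4, CD4CD8 and CD8 intraepithelial samples. It was 4.84 in CD4 and 6.79 in CD8 of the lamina propria and was not listed in any node sample. Of 11 Klra genes measured beside Klra17, 8 were at the floor throughout. The other 3, all Ly49 receptor genes, were Klra5 (5.32), Klra6 (6.25) and Klra7 (7.29), highest in intraepithelial CD8.

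Markers of other cells were listed in some of these samples. Of 11 measured markers of NK and innate lymphoid cells, Klrb1, Ncam1 and Fcgr3 were at the floor in every sample. The log2 of the summed linear values of the list was 9.01 to 10.84 in CD4 samples, 10.69 to 12.55 in CD8 samples and 12.80 in CD4CD8, with Cd7 and Il2rb, which T cells also express, as its most abundant genes. Ncr1, the defining NK receptor NKp46, was 5.09 in lamina propria CD4 and at the floor in the other 8 samples, and Klrb1c (NK1.1) was 5.05 in mesenteric CD8, 5.13 in peripheral CD8 and not listed elsewhere. Eomes was 7.03, 7.22 and 7.45 in lamina propria, mesenteric and peripheral CD8 and not listed elsewhere. Tbx21 was listed in 7 samples, from 4.75 in peripheral CD8 to 7.20 in CD4CD8. Itga2 was 6.20 in CD4CD8 and 4.97 in lamina propria CD4, and Fcer1g was 6.33 in CD4CD8 and 7.0 in intraepithelial CD8. Lamina propria CD4, the 1 CD4 sample that listed Klrc1 and Klrk1, also listed Fcer1g (6.09) and 38 genes found in no other sample, Ncr1 and Syk (4.93) among them. Its limit was 4.34, against 5.05 to 6.30 in the other gut samples, so low levels could be listed in the gut only there. The Syk level lies below all those gut limits, and that of Ncr1 below all but the one of intraepithelial CD8. In the nodes, with limits of 4.34 to 4.38, both levels would have been listed. The part of other cells in its Klrc1, Klrk1 and Klrg1 values was not tested. Of 6 measured epithelial markers, 5 were listed in both lamina propria samples, with a summed log2 level of 12.75 in CD4 and 12.47 in CD8. In intraepithelial CD8 the sum was 9.16, from Cdh1 (8.95, its highest value) and Epcam (6.29), and in intraepithelial CD4 it was 6.62, from Cdh1 alone. In CD4CD8 the sum was 7.46. Among the nodes Cdh1 alone was listed, in both CD8 samples (5.41 and 5.38). Their part in the gut differences was not tested. Of 18 measured plasmacytoid and myeloid markers, 9 were at the floor throughout. CD4CD8 listed 5 of them, Bst2, Irf7, Irf8, Cd68 and Cybb, and intraepithelial CD4, with Klra17 below its limit, listed 5 as well. These 5 are not particular to CD4CD8: Bst2 and Irf7 were listed in all 9 samples, Irf8 and Cd68 in 7 and Cybb in 4. The rest of the list, with Lyz2, Csf1r, Itgam and Tlr9, was at the floor in CD4CD8. Over the 9 samples the log2 of their summed linear values was 8.86 to 10.47, and 9.87 in CD4CD8. Their part in the Klra17 value was not tested.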

How the data were processed

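Capture probes with biotin and reporter probes with a barcode were used on column-isolated total RNA, per the labels' protocols. The deposited table holds log2 values with a floor. How the authors scaled samples, set the floor or named a genome build is not given in the sources used here. Samples were grouped by the description in their labels. Values were used as deposited.

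Tests used limma 3.58.1 (R 4.3.3), lmFit and eBayes with trend, on the 8 CD4 and CD8 samples with additive tissue and subset terms (3 residual degrees of freedom, 1.89 prior), two-sided. The tests took genes listed in 2 or more of these samples and left out 20 housekeeping genes. A threshold of 0.05 was applied to adjusted p-values. The additive residual is the change of tissue effects with subset. Steps were accepted where over 90% of values up to 150 lay within rounding of whole counts. In the 4 resolved samples 100% did, against 21.2 to 38.3% by chance. No count test was run, since 5 samples gave no step. A bound sets a listed value against the limit of the sample at the floor and leaves out counting error. The fit was tested on simulated data. Python 3.11.15, numpy 2.4.6, pandas 2.3.3 and scipy 1.17.1 were used.

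The 6 genes and the lists of ligands, adaptors, other NK-type receptors and cell markers were chosen with earlier results of these data known. Named genes are the members, the 3 genes most like each member listed in at least 3 samples, and listed partners that passed a test or bind a member. Klrc2, Klra5, Klra6, Klra7, Ulbp1, H60a and the marker genes with values were named after their values were seen. Alternatives were filters, floors, scaling, trend, sample weights and leaving out each tissue's pair.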

Additional observations from a re-analysis of the deposited data

Results flagged for a closer look

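Klra17 had a log2 value of 6.06 in the intraepithelial CD4CD8 sample, which entered no test, and was at the floor in the 8 samples that did. It is listed here because the signal lies in a sample outside the tested comparisons. It was 1 of 3 genes above the floor in that sample alone, with Serping1 (6.01) and Egr2 (5.66), and its 29 counts lie close to the 20 below which no gene was listed there. There is no second CD4CD8 sample to set it against.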

How the results depend on the processing

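Each group is 1 sample, so replicate numbers pair nothing. CD4 and CD8 samples were matched by tissue, which was a term of every fit and gave the pairs of the permutation test. Of 224 alternative values of the members, 201 kept their direction and side of the threshold. That count is no measure of robustness, since most of the 224 belong to differences not called in the main fit. Some settings, such as no filter or no trend, also cannot change a size or its direction. The number of samples limits precision, and depth limits every gene at the floor, most of all in intraepithelial CD4. Causes of the shifts below were not tested, except those that follow from a setting. Fewer pairs leave fewer degrees of freedom, and raising the floor shortens differences. Setting floor entries to each sample's limit raises them most where limits are high, as in the gut samples other than lamina propria CD4.

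In CD8 against CD4, 64 genes were called, 14 with no filter, 36 with all values below 6.30 raised to it, 155 with sample weights and 21 to 69 when a tissue's pair was left out (30 without the lamina propria, 21 without the mesenteric and 22 without the peripheral pair). Median centring moved the median difference from -0.14 to 0.012 and the share called higher from 37.5 to 50%. Klrc1 lost its call with no filter (adjusted p = 0.0728) and without the mesenteric pair (0.0503; range over alternatives 0.000745 to 0.0728), and Cd160 with the raised floor (1.26, adjusted p = 0.101; range 0.000106 to 0.101). Klrk1 gained one with sample weights (3.30, adjusted p = 0.00359) and without the lamina propria pair (3.08, adjusted p = 0.0362). Klrd1 kept its call in all (2.67 to 3.34).

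In gut against node 125 genes were called, and 48 to 136 when a pair was left out (65 without the mesenteric, 48 without the peripheral). The members called rose from 1 to 3 with values at the floor set to each sample's limit, and were 1 to 2 when a pair was left out. The limits add Klrd1 (adjusted p = 0.0403), which has no floor entry and kept its size. They also add Klrg1 (1.19, adjusted p = 0.0426), whose size there rests mainly on limits put in for gut floor entries. Over all genes that setting called 181 and moved the median from 0.038 to 0.248. Klrc1 turned from -0.09 to 0.38 at the limits, 0.18 without the intraepithelial and 0.06 without the peripheral pair. Klrk1 turned from -0.02 to 0.45 at the limits, 0.005 with median centring, 0.051 with housekeeping centring, 0.73 without the intraepithelial and 0.10 without the peripheral pair (range -0.78 to 0.73 with a pair left out). None of these passed.

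In intraepithelial against lamina propria 96 genes were called, 50 with no filter, 28 with sample weights, and 55 and 26 without the mesenteric and peripheral pair. Klrc1 turned from -0.55 to 0.03 with the raised floor and 0.45 at the limits, and Klrg1 from -0.61 to 0.12 at the limits. Between the nodes 0 genes became 1 with no filter and 19 with sample weights, and Cd160 turned from -0.03 to 0.01 with median centring. For the difference between gut and node the raised floor made 1 member called, Cd160, which turned from -0.36 to 1.63. For that between the gut compartments 0 genes became 67 with the raised floor and 94 with median centring, the latter with 1 member, Klrk1 (1.80, adjusted p = 0.0284); with the raised floor Klrk1 turned from 1.75 to -0.23. Spearman's rho shared 1 of the 3 genes most like Klrd1.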
